A study of Mus musculus with 17 samples.

Results

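The 9 genes described here, Neurog3, Neurod1, Insm1, Pax4, Nkx2-2, Rfx6, Fev, Pax6 and Isl1, encode transcription factors of the enteroendocrine lineage. They were chosen by name from the 26422 gene symbols that the count tables list. Their mRNA was counted by Seq-Well S3, a single-cell method that catches transcripts on barcoded beads in small wells and counts each molecule once by its unique molecular identifier (UMI), in small intestinal organoids grown from C57BL/6 mice. At day 0 the organoids were in ENR+CV, the medium with EGF, Noggin, R-spondin 1, CHIR99021 and valproic acid that enriches stem cells (2 libraries). They were then moved to ENR+CD, in which CHIR99021 activates Wnt signalling and DAPT blocks Notch signalling, either alone (control, 7 libraries) or with 160 nM KPT-330, an inhibitor of the nuclear exporter XPO1 (8 libraries). Days 0.25, 1, 2 and 4 have 1 library in each condition, day 3 has 1 control library and 2 with KPT-330, and day 6 has 2 of each. Each library pools cells of many organoids, and what a replicate number marks is left unstated in the labels, so p-values measure the spread between these libraries, which may be technical. For KPT-330 against control this spread includes differences of the effect between days, as most days have 1 library in a condition. The comparisons below ask when each factor appears in ENR+CD, whether KPT-330 alters its level, and whether the factors differ inside cells that carry endocrine transcripts.

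Enteroendocrine cells are the hormone-secreting cells of the gut epithelium, and they arise from secretory progenitors once Notch signalling is low. Neurog3 is switched on briefly in the progenitor and commits it to the endocrine fate. It activates a cascade of further factors, of which Neurod1, Insm1, Pax4, Nkx2-2 and Rfx6 act early, while Fev, Pax6 and Isl1 are known for their roles in subtypes and in the expression of hormone genes.

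The 19877 cells that the authors kept, of 26229 barcodes, were used: 1996 in ENR+CV, 9050 in control and 8831 with KPT-330. Libraries held 3458887 to 12433109 UMIs over these cells and a median of 2676 to 8463 UMIs per cell. Between libraries, 14 barcodes were shared, each by 2. The tables of 5 libraries (1 of day 0 and those of days 0.25 and 1) list 19823 to 21652 genes and the other 12 list 15576 to 17849. The change over days was therefore also computed within these 12 libraries. In all kept cells, KPT-330 was also compared with control over days 0.25 and 1 alone and over the later days alone. Other fits were not split in this way. Of the markers fixed for cells outside the epithelium, Col1a1, Col3a1 and Ptprc had 0 UMIs in the cells richest in endocrine transcripts, defined further on as those with at least 10 UMIs of Chga, Chgb and Neurod1, while Elavl4 had 245 in control and 104 with KPT-330 and Pecam1 44 and 7. Levels are given in CPM, the UMIs of a gene per 1000000 UMIs of the same cells, and such a level can rise with more endocrine cells or with more mRNA per cell, which cannot be told apart.

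Neurog3, the factor that starts the endocrine programme (chr10:62133090-62134763 on GRCm38, plus strand), was already present in the stem cell medium and rose within the first day in ENR+CD. Its level was 20.8 and 34.8 CPM at day 0. In control it was 28.6 at day 0.25, 223 at day 1, 198 at day 2, 309 at day 3, 274 at day 4, and 207 and 248.9 at day 6. With KPT-330 it was 24.9 at day 0.25, 83.0 at day 1, 60.5 at day 2, 85.7 and 67.5 at day 3, 37.0 at day 4, and 33.4 and 59.2 at day 6. From day 1 onwards every KPT-330 library lay below every control library, while at day 0.25 both conditions were at the level of day 0. The share of cells with a UMI of Neurog3 was between 11.3% and 20.4% in the control libraries of days 1 to 6 and between 3.38% and 14.4% with KPT-330, so that these shares overlapped. After each cell was thinned to 2000 UMIs, which leaves out shallower cells, the shares were 9.39% to 15.2% and 2.21% to 8.01% and no longer did.

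Pax4, a paired homeodomain repressor that takes part in the choice between endocrine subtypes (chr6:28442334-28449353, minus strand), showed the widest gap between the conditions. It started at 0.669 and 1.80 CPM at day 0. In control it was 1.88 at day 0.25, 11.2 at day 1, 18.8 at day 2, 31.7 at day 3, 28.7 at day 4, and 20.1 and 32.2 at day 6. With KPT-330 it was 0.656, 3.18 and 1.46 at days 0.25, 1 and 2, then 5.11 and 2.83 at day 3, 2.13 at day 4, and 1.79 and 4.996 at day 6. The highest KPT-330 library stood below every control library from day 1 onwards. These levels rest on few molecules. From day 1 onwards a KPT-330 library held 8 to 46 UMIs of Pax4 and a control library 55 to 254. At day 6, 8.92% and 6.50% of control cells held a UMI of Pax4 and 0.874% and 1.10% of KPT-330 cells did.

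Neurod1, a basic helix-loop-helix factor that acts after Neurog3 (chr2:79452521-79456751, minus strand), rose from 5.36 and 6.79 CPM at day 0 to 61.5 at day 1, 77.9 at day 2, 170 at day 3, 137 at day 4, and 138 and 108 at day 6 in control. With KPT-330 it was 46.8 at day 1, 18.4 at day 2, 86.9 and 62.6 at day 3, 76.7 at day 4, and 49.7 and 85.9 at day 6. Insm1, a zinc finger repressor needed for endocrine differentiation (chr2:146221921-146225020, plus strand), reached 56.4 CPM by day 1 in control, and lay between 38.4 and 65.8 from day 2 to day 6. With KPT-330 Insm1 lay between 15 and 37.7 from day 1 to day 6. The KPT-330 libraries were below the control libraries of their day, except at day 0.25, where Insm1 was 6.39 in control and 12.5 with KPT-330.

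The homeodomain factor Nkx2-2 (chr2:147177546-147194243, minus strand) and the winged-helix factor Rfx6 (chr10:51677756-51730432, plus strand), both required for normal endocrine subtypes, followed nearly the same course. In control Nkx2-2 was 26.1, 33.8, 54.0 and 48.3 CPM at days 1 to 4, and 40.6 and 47.1 at day 6. In the same libraries Rfx6 was 23.8, 40.6, 62.2 and 45.2, and 35.2 and 33.4 at day 6. With KPT-330 from day 1 onwards Nkx2-2 lay between 11.6 and 28.0 and Rfx6 between 10.7 and 26.0, and the day 2 library was the lowest for both.

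Fev, an ETS factor best known from serotonin-producing neurons (chr1:74881509-74885419, minus strand), had its highest levels at the last day in control. Fev was 12.2 CPM at day 1, 35.2 at day 2, 68.3 at day 3, 82.1 at day 4, and 111 and 87.9 at day 6 in control. With KPT-330 Fev was 4.05 at day 1, 4.97 at day 2, 44.1 and 24.6 at day 3, 42.9 at day 4, and 24.9 and 50.5 at day 6. Every KPT-330 library was lower than the control libraries of its own day.

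Pax6, an activator of hormone genes such as glucagon (chr2:105668900-105697364, plus strand), and Isl1, a LIM homeodomain factor of hormone-producing cells (chr13:116298281-116309689, minus strand), overlapped between the conditions. Pax6 was 3.87 CPM at day 1, 6.15 at day 2, 17.9 at day 3, 14.5 at day 4, and 18.7 and 15.1 at day 6 in control. With KPT-330 it was 2.89 at day 1, 1.11 at day 2, 12.3 and 14.5 at day 3, 22.03 at day 4, and 14.3 and 19.99 at day 6. The ranges of the conditions overlapped from day 3 on, and the day 2 library was the lowest of those with KPT-330. Isl1 in control was 3.26 CPM at day 1, 6.64 at day 2, 14.0 at day 3, 6.99 at day 4, and 6.68 and 4.28 at day 6. With KPT-330 Isl1 was 4.05 at day 1, 1.80 at day 2, 13.6 and 11.2 at day 3, 16.6 at day 4, and 5.60 and 8.74 at day 6, and its ranges overlapped as well. Isl1 rests on 14 to 122 UMIs a library from day 1 onwards. Neurog3, Neurod1, Nkx2-2 and Pax6 overlap other annotated genes, among them Fam241b, Cerkl, Nkx2-2os and Pax6os1, and whether reads were counted by strand is not given in the sources used here.

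**Figure D1:**
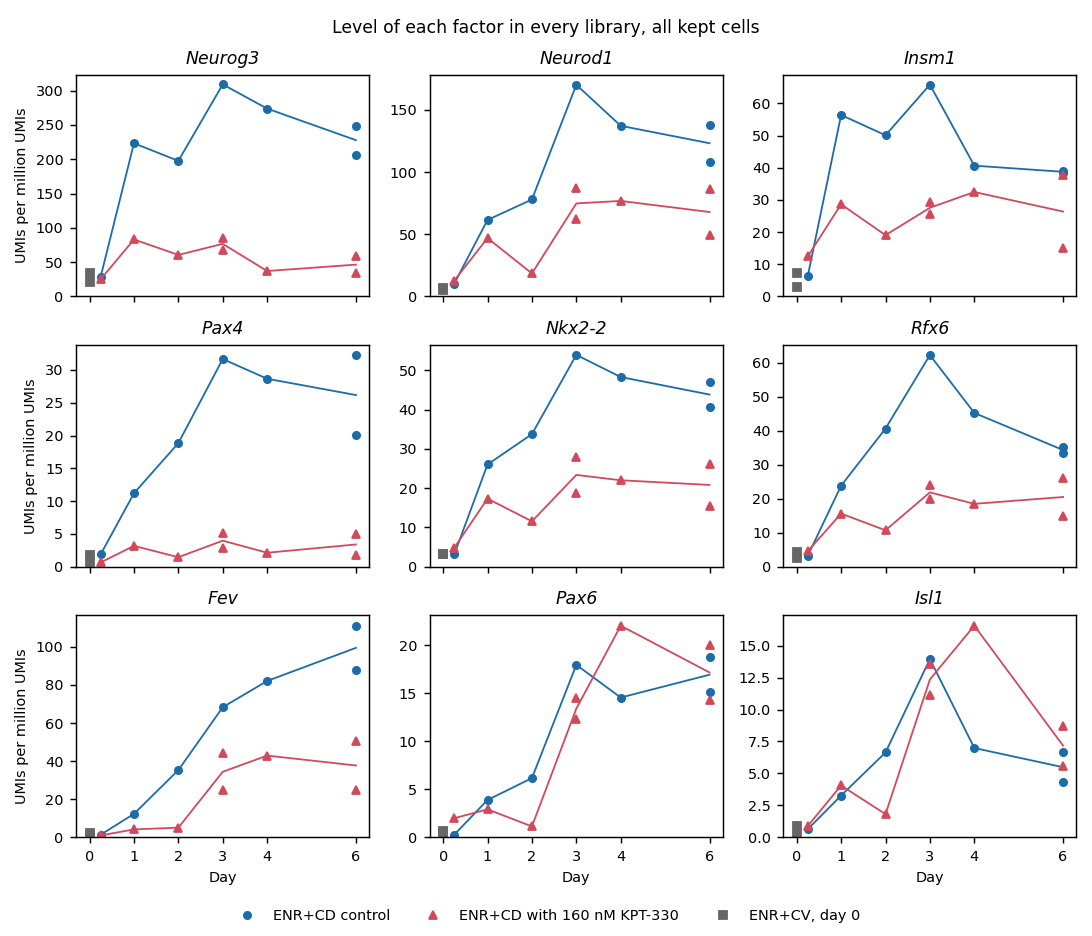
Level of each of the 9 factors in CPM (vertical axis, from 0, with its own scale for each gene) against day (horizontal axis); each point is 1 library and lines join the mean of a day. Neurog3 and Pax4 lay lower with KPT-330 in every library from day 1 onwards, whereas Pax6 and Isl1 overlapped between conditions from day 3.

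The change over days was tested on the summed counts of all 17 libraries in edgeR, with treatment as a term. All 9 factors differed between days (adjusted p 2.3e-07 for Fev to 1.4e-04 for Isl1), in a fit in which 62.3% of the 12971 genes tested passed and 30.7% passed and were higher at day 6. The day values of this fit take the treatment effect to be the same on every day, which can shift single days such as day 0.25. By day 1 the factors stood between 2.68 (Isl1) and 3.54 (Neurod1) above day 0 on the log2 scale, and at day 0.25 between -0.15 (Fev) and 1.29 (Neurod1). From day 1 to day 6 the courses parted. Neurog3 and Insm1 were 3.19 and 3.26 above day 0 at day 1 and 3.02 and 3.09 at day 6. Fev went from 2.79 at day 1 to 6.04 at day 6, and Pax6 from 2.74 to 5.27. The median over the 9 factors at day 6 was 3.85, beside -0.000617 over all genes tested. Within the 12 libraries that list fewer genes, and in the 9 untreated libraries, all 9 passed as well.

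KPT-330 was then compared with control over the 15 libraries in ENR+CD, with day as a term. Of the 9 factors, 6 were lower (28.6% of the 12812 genes tested passed, 14.2% lower and 14.4% higher), none was higher and 3 did not pass; the median log2 fold change was -0.73, beside -0.00228 over all genes tested. The 2 largest changes were those of Pax4, by -2.70 (SE 0.23, adjusted p = 2.0e-05), and of Neurog3, by -1.61 (SE 0.19, adjusted p = 1.8e-04). Fev changed by -1.10 (SE 0.24, adjusted p = 0.0048), Rfx6 by -0.80 (SE 0.18, adjusted p = 0.0065), Nkx2-2 by -0.73 (SE 0.16, adjusted p = 0.0051) and Neurod1 by -0.65 (SE 0.19, adjusted p = 0.020). The 3 factors that did not pass were Insm1 (-0.45, SE 0.20, adjusted p = 0.11), Pax6 (0.11, SE 0.29, adjusted p = 0.80) and Isl1 (0.34, SE 0.30, adjusted p = 0.41).

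Some of these calls turned on single libraries or days. Neurod1 did not pass without the day 3 control library (-0.62, adjusted p = 0.065). Insm1 passed as lower without either day 0.25 library (-0.61, adjusted p = 0.021) and without replicate 2 of day 6 with KPT-330 (-0.59, adjusted p = 0.032). Isl1 passed as higher without either library of day 2 (0.66, adjusted p = 0.046). Over days 0.25 and 1 alone, where 4.96% of 11227 genes passed, 2.19% lower and 2.77% higher, 2 factors were lower. These were Neurog3 (-0.84, adjusted p = 1.6e-05) and Pax4 (-1.65, adjusted p = 0.018), whereas Neurod1 was at -0.06 and Nkx2-2 at -0.12. Both days have 1 library in each condition, so few libraries set the spread of this fit. Neurog3 was 24.9 CPM with KPT-330 and 28.6 in control at day 0.25, and 83.0 and 223 at day 1. At day 0.25 Pax4 rested on 3 UMIs with KPT-330 and 15 in control. Over days 2 to 6 alone, where 29.7% of 12612 genes passed, 15.1% lower and 14.6% higher, the 6 factors were lower again, with Neurog3 at -1.89 and Pax4 at -2.87.

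On the plain CPM scale, the median gene was lower with KPT-330 by up to -0.37 on the log2 scale (day 6), and by -0.04 at day 0.25. The fits remove this shift by TMM scaling, after which the median lay between -0.03 and 0.02 over the days. On the TMM scale 3 of the 9 factors, Neurog3, Pax4 and Rfx6, had all 6 KPT-330 libraries of days 2 to 6 below all 5 control libraries, which held for 5.7% of all genes tested. Neurog3 then ranged from 41.2 to 97.4 CPM against 181 to 274 in control, Pax4 from 1.51 to 5.81 against 17.2 to 29.4, and Rfx6 from 11.1 to 28.8 against 30.4 to 55.1. For Nkx2-2 the ranges overlapped, at 11.97 to 31.8 against 30.9 to 47.8. No factor lay above all control libraries, as 4.42% of genes did.

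Markers of other cell types moved with the treatment in the same sums. The Paneth list (8 of 8 genes measured) summed to a median of 850 UMIs per 10000, range 45.1 to 1817, with KPT-330 and to 518, range 31.8 to 1200.2, in control, and 6 of its 8 genes passed as higher and 1 as lower, beside 14.4% and 14.2% of all genes. Of the goblet and the enterocyte markers, 4 of 6 each were higher and none lower. All 5 stem cell markers were lower, among them Lgr5 (-0.62) and Ascl2 (-1.12), as were 2 of 4 cycling markers, Mki67 (-0.99) and Top2a (-0.53). The part of these shifts in the lower factor levels was not tested.

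Whether the effect differs between days was tested with a treatment by day term. Of the 12812 genes, 0 passed after adjustment in edgeR, 1343 had an unadjusted p under 0.05, and 304 passed when low counts were not filtered. Neurog3 had a slope of -0.22 per day (SE 0.07, unadjusted p = 0.0089, adjusted p = 0.28), and passed without the filter (-0.22, adjusted p = 0.0011). Isl1 had a slope of 0.25 (SE 0.16, adjusted p = 0.63), Pax6 of 0.17 (SE 0.16, adjusted p = 0.78) and Pax4 of -0.04 (SE 0.15, adjusted p = 0.97).

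To look inside endocrine cells, cells with at least 1 UMI of Chga, Chgb or Neurod1 were taken (5972 of 19877). Chga and Chgb encode the chromogranins of hormone granules. In control the gate held 3.68% of cells at day 0.25, 12.4% at day 1, 31.7% at day 2, 40.4% at day 3, 42.9% at day 4, and 82.7% and 44.0% at day 6. With KPT-330 it held 3.63%, 8.45% and 18.7% at days 0.25, 1 and 2, then 47.0% and 21.0% at day 3, 22.8% at day 4, and 62.6% and 37.1% at day 6. The share of gated cells was lower with KPT-330 on 6 of 6 days, with a mean log2 odds ratio of -0.74 ± 0.47 (SD, n = 6 days; exact permutation of signs over days, two-sided p = 0.031, the lowest value that 6 days can give). At day 0.25 the log2 odds ratio was only -0.016, and at day 3 the higher of the KPT-330 libraries lay above control. With cells thinned to 2000 UMIs the mean was -0.61 (exact p = 0.0625). Leaving out replicate 2 of day 3 with KPT-330 gave -0.59, and leaving out replicate 1 of day 6 in control gave -0.52 (both exact p = 0.09375). Since Chgb itself was lower with KPT-330 (-1.24, SE 0.28, adjusted p = 0.0069), the gate is not independent of the treatment.

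The gate is wide in late libraries, where cells marked as another type also held a few UMIs of the gate genes. In control, cells just inside the threshold, with 1 UMI of the gate genes, held 102 CPM of Neurog3 and 0.235 CPM of Pax6, and cells just outside, with 0 UMIs, held 60.1 and 0.472. Cells with 10 to 49 UMIs held 1046 and 45.5. Among Paneth-marked cells of days 3 to 6, in which Paneth markers made up at least 10% of UMIs and which should lack these factors, 49.1% of 2163 control cells (median 5066 UMIs) and 31.6% of 3187 KPT-330 cells (median 4030) passed the gate, and 10.1% and 5.08% held a UMI of Neurog3. Therefore a stricter gate of at least 10 UMIs over the 3 genes was added after these values were seen. It kept 2054 cells, and 2.50% and 3.45% of the Paneth-marked cells passed it. Among the cells of days 3 to 6 that passed it (median 4301 and 3441 UMIs), 46.7% held Neurog3 in control and 21.5% with KPT-330, 35.7% and 6.77% held Pax4, and 11.4% and 21.1% held Isl1. These shares pool cells over libraries and days of unlike weight and were not tested. Day 3 gave 294 of the 1083 control cells, and its 2 KPT-330 libraries gave 170 and 109 of the 724 with KPT-330.

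**Figure D2:**
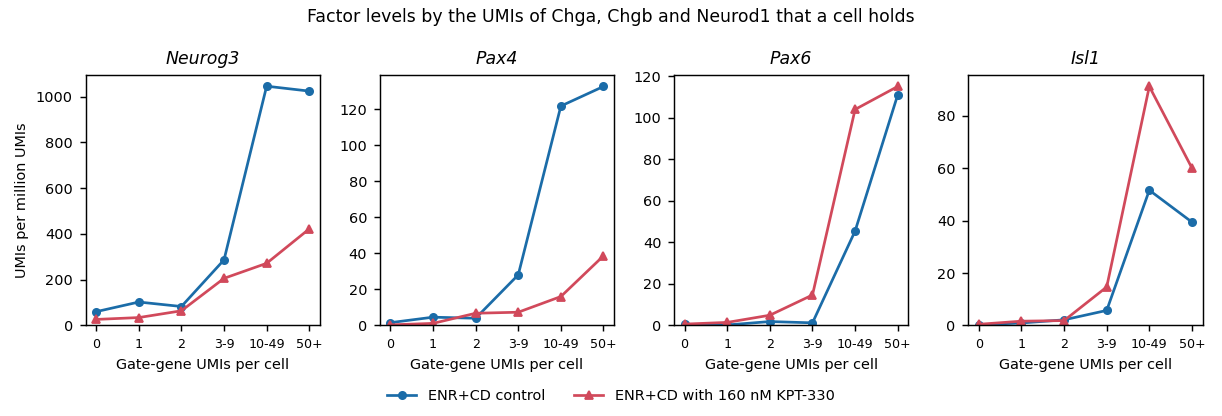
Level of 4 factors in CPM (vertical axis, from 0) in cells grouped by how many UMIs of Chga, Chgb and Neurod1 they held (horizontal axis), with the cells of all days pooled within each condition. Neurog3, Pax4, Pax6 and Isl1 are shown. In cells with 10 to 49 gate UMIs Neurog3 was at 1046 in control and 272 with KPT-330, whereas Isl1 was at 51.6 and 91.2.

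Inside the gate, Neurog3 and Pax4 were again lower with KPT-330. Neurog3 was between 238 and 720 CPM in the gated cells of control libraries, median 478, and between 46.4 and 501 with KPT-330, median 142. Pax4 was between 23.7 and 77.8, median 62.2, and between 2.90 and 36.1, median 9.78. The ranges of both genes overlapped over all days. In edgeR the log2 fold changes were -1.44 for Neurog3 (SE 0.22, adjusted p = 0.0035) and -2.42 for Pax4 (SE 0.29, adjusted p = 0.0010), in a fit in which 5.38% of the 11428 genes tested passed, 2.59% lower and 2.79% higher. Neurod1 helped to choose the cells and was not tested. The other 6 did not pass: Fev (-0.69, adjusted p = 0.13), Nkx2-2 (-0.56, adjusted p = 0.13), Rfx6 (-0.36, adjusted p = 0.42), Insm1 (-0.03, adjusted p = 0.98), Pax6 (0.53, adjusted p = 0.39) and Isl1 (0.76, adjusted p = 0.26). The median over the 8 tested was -0.46, beside -0.02 over all genes. In the same fit 3 of 8 Paneth markers (Mmp7 1.24, Lyz1 1.03, Itln1 1.01) and 2 of 6 goblet markers (Fcgbp 0.91, Muc2 0.89) were higher and none lower, and their part was not tested. Without replicate 2 of day 6 with KPT-330, Nkx2-2 (-0.74, adjusted p = 0.014) and Fev (-0.89, adjusted p = 0.021) passed too. Nkx2-2 also passed as lower with cells thinned to 2000 UMIs (-0.77, adjusted p = 0.029).

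In cells with at least 10 gate UMIs, 12 libraries had the 20 cells needed, with none at day 0.25 and no KPT-330 library at day 1. Neurog3 was 1244 CPM at day 1, 926 at day 2, 1236 at day 3, 1563 at day 4, and 740 and 1105 at day 6 in control. With KPT-330 it was 317 at day 2, 357 and 657 at day 3, 234 at day 4, and 156 and 161 at day 6. No KPT-330 library reached a control library. Pax4 was between 88.9 and 182 in these control libraries and between 5.93 and 29.3 with KPT-330. The log2 fold changes were -1.95 for Neurog3 (SE 0.24, adjusted p = 0.0013) and -2.60 for Pax4 (SE 0.26, adjusted p = 3.2e-04), where 1.26% of 10041 genes passed, 0.946% lower and 0.319% higher. At day 4 Isl1 was 38.0 in control against 186 with KPT-330, and 28.5 and 22.9 against 43.5 and 48.97 at day 6. It was 78.8 against 75.7 and 168 at day 3, and 55.5 against 28.7 at day 2, so that the conditions overlapped. Over all days its change of 0.88 did not pass (SE 0.32, adjusted p = 0.25), nor did that of Pax6 (0.45, SE 0.28, adjusted p = 0.53). In the same cells the Paneth list summed to a median of 313 UMIs per 10000 with KPT-330 (range 130 to 871). In control its median was 159 (range 3.17 to 386), with the lowest value at day 1, a day without a KPT-330 library here. At day 6 the list summed to 871 and 130 with KPT-330 and to 386 and 189 in control, so that the conditions overlapped. The part of the Paneth list was not tested.

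**Figure D3:**
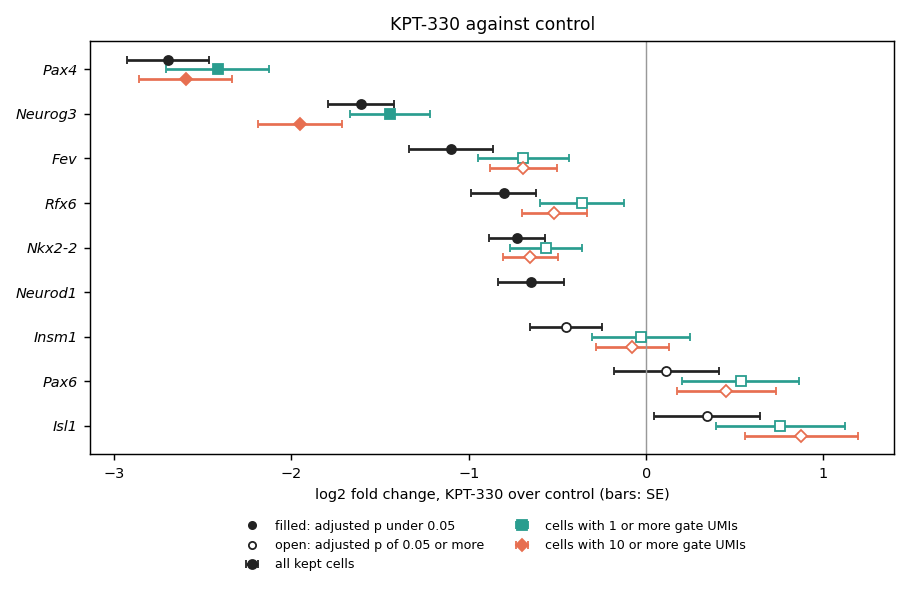
log2 fold change of KPT-330 over control (horizontal axis) for each factor in all kept cells, in cells with 1 or more gate UMIs and in cells with 10 or more; bars are standard errors, and filled symbols passed at an adjusted p under 0.05 in edgeR. Pax4 and Neurog3 were lower in all 3 sets of cells. Of these 3 sets, Fev, Rfx6, Nkx2-2 and Neurod1 passed in all kept cells only, and Neurod1 was not tested in gated cells.

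The share of gated cells that held a UMI of Neurog3 was also lower with KPT-330. It was 47.6%, 55.0%, 42.2%, 36.7% and 27.0% at days 0.25, 1, 2, 3 and 4 in control, and 22.9% and 18.7% at day 6. With KPT-330 it was 26.5%, 47.8% and 23.0% at days 0.25, 1 and 2, then 25.3% and 18.8% at day 3, 10.7% at day 4, and 9.42% and 7.55% at day 6. The share was lower on 6 of 6 days, with a mean log2 odds ratio of -1.19 ± 0.43 (SD, n = 6 days; same exact permutation, p = 0.031). In both conditions the share was lower at day 6 than at day 1, while the gate held more cells. With cells thinned to 2000 UMIs the mean was -1.60 (exact p = 0.031), and with at least 10 gate UMIs it was -1.95 on the 4 days with enough cells (lower on 4 of 4; exact p = 0.125, the smallest that 4 days allow).

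Cells of the gate with and without a Neurog3 UMI were then compared within each of 14 libraries, with both conditions in the same fit. These were the control libraries of days 0.25 to 6 and the KPT-330 libraries of days 1 to 6. Of the 7 factors tested, 5 were higher where Neurog3 was detected: Pax4 by 3.01 on the log2 scale (SE 0.13, adjusted p = 7.6e-16), Rfx6 by 2.04 (SE 0.13, adjusted p = 5.4e-13), Insm1 by 1.90 (SE 0.12, adjusted p = 1.9e-12), Nkx2-2 by 1.88 (SE 0.14, adjusted p = 2.1e-11) and Fev by 1.18 (SE 0.09, adjusted p = 9.1e-11). These 5 were higher in 14 of 14 libraries, and in this fit 40% of the 11174 genes tested passed, 17.3% higher and 22.7% lower. All 8 Paneth markers and all 6 enterocyte markers were lower in the cells with Neurog3, with median changes of -0.78 and -2.70, and their part was not tested. Pax4, for example, had a median of 75.2 CPM with and 7.96 without Neurog3. Isl1 (0.18, SE 0.18, adjusted p = 0.46) and Pax6 (-0.08, SE 0.17, adjusted p = 0.76) did not pass.

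The stricter gate gave other values for Pax6 and Isl1, but it also changed the libraries. Enough cells of both classes were left in the control libraries of days 2 to 6 and in the KPT-330 libraries of days 2 and 3 only. The part of this change of libraries was not tested. In the 8 libraries with enough cells of both classes, Pax6 was lower in cells with Neurog3 in 8 of 8, with a median of 47.3 CPM against 116 without it. Isl1 was likewise lower in 8 of 8, with 27.3 against 72.3. In edgeR the changes were -1.33 for Pax6 (SE 0.15, adjusted p = 2.3e-07) and -1.04 for Isl1 (SE 0.17, adjusted p = 8.6e-05), where 11.7% of the 9297 genes tested passed, 6.58% lower and 5.08% higher. Pax4 (1.67, SE 0.12, adjusted p = 1.9e-10), Rfx6 (0.70, SE 0.11, adjusted p = 3.8e-05), Nkx2-2 (0.54, SE 0.11, adjusted p = 0.0014) and Insm1 (0.51, SE 0.09, adjusted p = 3.6e-04) were higher. Fev did not pass (-0.04, SE 0.09, adjusted p = 0.96).

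**Figure D4:**
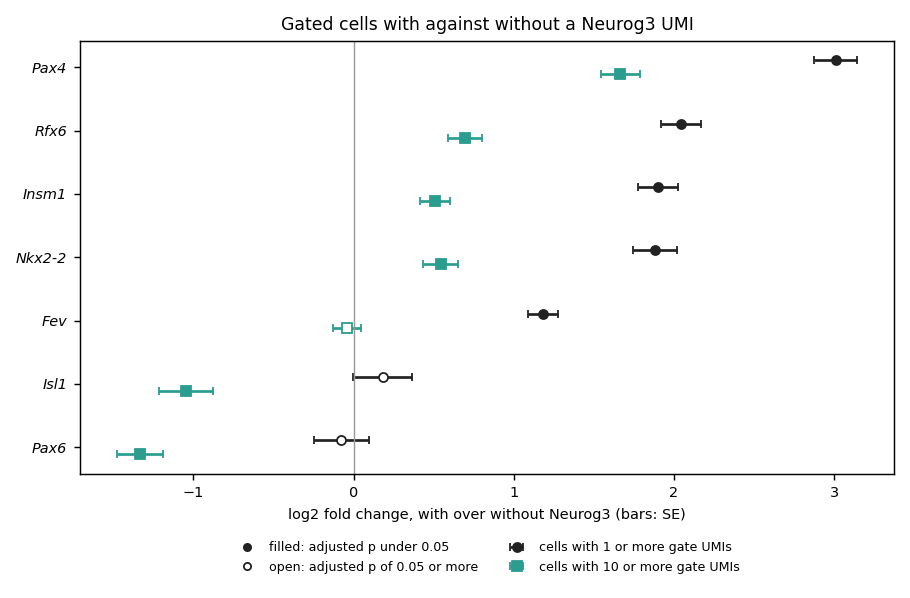
log2 fold change of gated cells with over those without a Neurog3 UMI (horizontal axis) for the 7 factors that did not choose the cells, in both gates; bars are standard errors, and filled symbols passed at an adjusted p under 0.05 in edgeR. Pax4, Rfx6, Insm1 and Nkx2-2 lay to the right of 0 in both gates, and Pax6 and Isl1 lay to the left in the stricter gate, at -1.33 and -1.04. Of the KPT-330 libraries, the stricter gate held those of days 2 and 3 only.

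The make-up of the factor UMIs was compared after the levels had been seen, as the share that each gene takes of all UMIs of the 9 factors in a library. Neurog3 took 33.6% to 53.0% in control libraries, median 40.4%, and 13.7% to 46.7% with KPT-330, median 26.7%. Pax4 took 2.66% to 5.23% and 0.789% to 1.56%, without overlap. Isl1 took 0.695% to 1.76% and 1.37% to 6.13%, and Pax6 0.450% to 3.04% and 0.860% to 8.18%. As a log2 ratio to the other 8 genes, Pax4 was lower with KPT-330 on 6 of 6 days (-1.64 ± 0.53, SD, n = 6; exact p = 0.031), and Insm1 (0.60 ± 0.39) and Nkx2-2 (0.34 ± 0.11) were higher on 6 of 6 (both exact p = 0.031). Isl1 (1.24 ± 0.97) and Pax6 (1.20 ± 1.10) were higher and Neurog3 (-0.91 ± 0.78) lower on 5 of 6 days (each exact p = 0.0625), and all 9 ratios were tested without adjustment. With cells thinned to 2000 UMIs, the ratio of Nkx2-2 was 0.40 (exact p = 0.156). Since the shares sum to the whole, a lower share of Neurog3 raises the others.

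**Figure D5:**
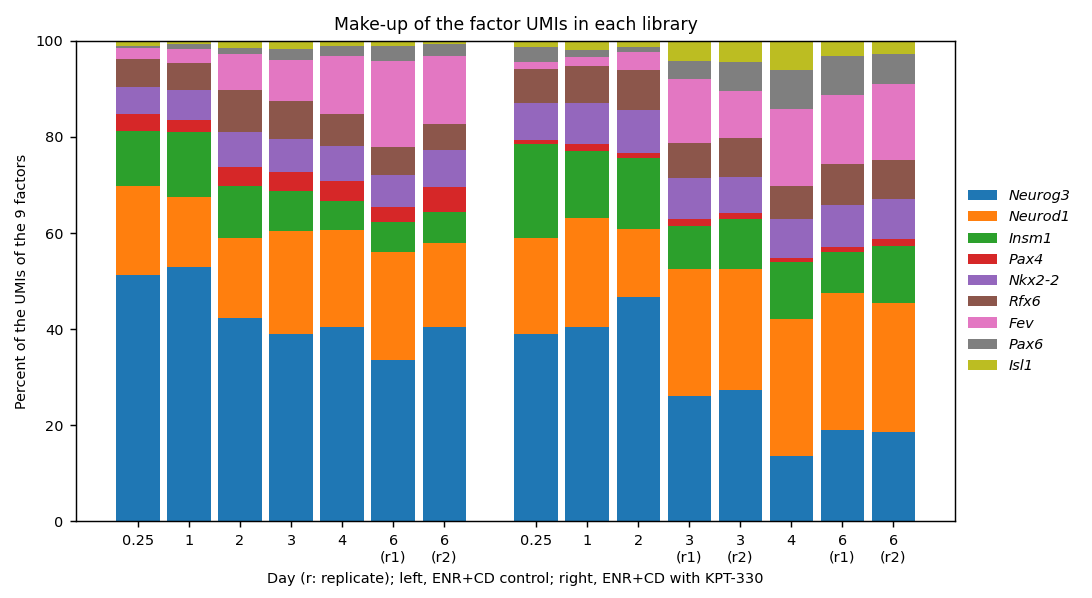
Share of the UMIs of the 9 factors that each gene takes (vertical axis, percent, stacked to 100) in each library in ENR+CD, with control libraries at left and KPT-330 libraries at right, by day. Neurog3 took between 13.7% and 27.3% in the 5 KPT-330 libraries of days 3 to 6 and between 33.6% and 40.4% in the 4 control libraries of those days.

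Among all genes tested, the courses most like that of a member were found by the root mean square difference of centred log2 levels over the 17 libraries. Nkx2-2 and Rfx6 were each other's nearest gene, at 0.19, against a median of 1.30 for Nkx2-2 with all genes. Myt1, a zinc finger factor of the same programme, came next for both, at 0.29 and 0.25. The 3 genes nearest to Neurog3 were Dbn1 (0.45), Pax4 (0.46) and Tubb3 (0.47), and those nearest to Pax4 were Neurog3 (0.46), Mfng (0.47) and Pcyt1b (0.54). Neurod1 was nearest to Runx1t1 (0.30), St18 (0.32) and Nkx2-2 (0.37), and Insm1 to Rph3al (0.40), Myt1 (0.40) and Nkx2-2 (0.45). Fev, Pax6 and Isl1 had no member among their nearest 3. Fev had Map1b (0.39), Cadps (0.47) and Scg3 (0.48), Pax6 had Gng4 (0.39), Gnao1 (0.43) and Lhfpl2 (0.47), and Isl1 had Plb1 (0.49) and Gsdma2 (0.53) among them. These distances share libraries, depth and the day of sampling and are descriptions.

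The promoters of the pair with the most similar courses, Nkx2-2 and Rfx6, and, as the first and a late factor of the cascade, of Neurog3 and Isl1 are shown as the 250 bases before the RefSeq start (GRCm38.p6, 5′ to 3′ on the strand of the gene). Capitals mark the E-box CANNTG, the letters that basic helix-loop-helix factors such as Neurog3 and Neurod1 bind, with N for any base. The starts used for Nkx2-2 and Rfx6 lie inside the gene spans given above and not at their ends.
Neurog3, chr10:62132840-62133089, plus strand: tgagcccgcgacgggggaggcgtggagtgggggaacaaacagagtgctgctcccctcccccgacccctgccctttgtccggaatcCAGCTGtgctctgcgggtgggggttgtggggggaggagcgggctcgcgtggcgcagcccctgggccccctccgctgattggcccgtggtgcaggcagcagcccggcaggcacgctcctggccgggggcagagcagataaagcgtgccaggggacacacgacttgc
Nkx2-2, chr2:147186403-147186652, minus strand: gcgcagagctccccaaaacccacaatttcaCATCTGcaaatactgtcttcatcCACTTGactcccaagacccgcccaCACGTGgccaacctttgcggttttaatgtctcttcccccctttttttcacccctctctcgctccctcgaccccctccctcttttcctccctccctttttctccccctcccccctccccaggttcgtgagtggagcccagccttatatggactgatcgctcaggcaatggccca
Rfx6, chr10:51685268-51685517, plus strand: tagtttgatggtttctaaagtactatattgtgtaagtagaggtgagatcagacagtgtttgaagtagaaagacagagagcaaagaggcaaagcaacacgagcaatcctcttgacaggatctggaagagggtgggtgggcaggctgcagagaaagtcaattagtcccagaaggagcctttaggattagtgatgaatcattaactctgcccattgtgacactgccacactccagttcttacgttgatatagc
Isl1, chr13:116309689-116309938, minus strand: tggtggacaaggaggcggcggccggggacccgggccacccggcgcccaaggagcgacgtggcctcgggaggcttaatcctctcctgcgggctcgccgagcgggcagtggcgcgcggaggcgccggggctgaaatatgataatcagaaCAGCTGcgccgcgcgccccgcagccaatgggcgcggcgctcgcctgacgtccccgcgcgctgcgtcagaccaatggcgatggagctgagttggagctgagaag
RefSeq entries were matched for 7 of the 9 genes, with 2 starts for Pax6; Pax4 and Insm1 have no entry in the table used. On either strand, 5 of these 8 promoters hold CANNTG, as do 66.2% of all 32851 promoters of that length. Nkx2-2 has 3 and Neurog3 and Isl1 1 each, while Rfx6 has 0. CAGATG, a form of the E-box, occurs in 1 of the 8, that of Nkx2-2, and in 14.4% of all promoters. CACNAG, the N-box bound by Hes repressors, occurs in 2 of the 8, those of Rfx6 and of 1 start of Pax6, and in 36.7% of all. The motif TATAAA occurs in 0 of the 8 and in 12.4% of all. A match is a stretch of letters, not a shown binding site.

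Other genes of the pathway were counted in the comparison over all cells, in which 14.2% of all genes tested were lower and 14.4% higher. Of 20 further factors of the enteroendocrine programme, 17 were tested, 5 were lower with KPT-330, none was higher and 12 did not pass, with a median log2 fold change of -0.20. The 5 were Lmx1a (-1.63, SE 0.29), a factor of serotonin-producing cells, Runx1t1 (-0.73, SE 0.20), Myt1 (-0.69, SE 0.21), Mnx1 (-0.57, SE 0.18) and Sox4 (-0.55, SE 0.17). Of 18 Notch and secretory fate genes upstream, 14 were tested, of which 2 were lower, a share at the level of all genes, and 4 higher. Mfng, a modifier of Notch receptors, was lower by -2.58 (SE 0.27, adjusted p = 9.2e-05) and Notch2 by -0.66 (SE 0.16, adjusted p = 0.0091). The higher ones were Atoh1 (0.60, SE 0.12, adjusted p = 0.0028), which opens the secretory fate, Spdef (0.54, SE 0.09), Bhlha15 (0.41, SE 0.08) and the Notch ligand Dll4 (0.28, SE 0.10, adjusted p = 0.044). Of 26 endocrine effector genes downstream, 25 were tested, 8 were lower, 1 was higher and 16 did not pass, with a median of -0.36. Tph1, which makes serotonin, was lower by -1.90 (SE 0.46, adjusted p = 0.0090), the peptide gene Tac1 by -1.47 (SE 0.41, adjusted p = 0.018) and Ddc by -0.62 (SE 0.09, adjusted p = 7.1e-04), whereas Syt7, a calcium sensor of secretion, was higher by 0.91 (SE 0.14, adjusted p = 7.0e-04).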

How the data were processed

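Libraries were prepared with Seq-Well S3 and sequenced, demultiplexed with bcl2fastq and aligned to mm10 with STAR in the Drop-seq pipeline, as the study's methods state. The authors deposited whole UMI counts per gene and cell for each of the 17 libraries, collapsed by cell barcode and UMI. Only cells that the authors kept were used, after their limits of more than 500 genes, fewer than 30000 UMIs and less than 35% mitochondrial UMIs and their removal of doublets. The libraries held 3458887 to 12433109 UMIs, which limits precision for Isl1, Pax6 and Pax4.

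Counts were summed per library and tested with edgeR 4.0.16 (quasi-likelihood, TMM, low counts filtered) in R 4.3.3 over all genes, with Benjamini-Hochberg adjustment and a threshold of 0.05. KPT-330 was compared with control with day as a term, days with treatment as a term, and gated cells with and without Neurog3 with library as a term. Shares of cells were compared by day with an exact sign-flip permutation test (SciPy 1.17.1). Gated sums needed 20 cells a library. Chga, Chgb and Neurod1, which chose the gated cells, were not tested there, nor was Neurog3 between its own classes. Marker sums are per 10000 UMIs. Each fit was tested on simulated data with planted log2 changes of 1.5, or slopes of 0.4 per day for the test by day. The fits recovered 92.5% to 100% of these changes, and 2.45% to 7.51% of calls were wrong. Smaller changes, and changes in genes of low level, were not simulated.

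The 9 genes and the gene lists were chosen with earlier results of these data known. All 9 were named, and each list was counted whole and named by up to 8 genes with the smallest adjusted p. A few single-gene values are not reported here. Alternatives were DESeq2 1.42.0, RLE size factors, no filter on low counts, a replicate block, thinned cells, other gates, all barcodes within the limits and leaving out each library. The gate of 10 UMIs, the splits by day, the 12 libraries that list fewer genes and the make-up of the factor UMIs were added after the data were seen.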

Additional observations from a re-analysis of the deposited data

How the results depend on the processing

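Of 1392 alternative values, 907 from leaving out a library or day and 348 from other settings were labelled the same as reported. For a fold change, slope, ratio or share this meant the same sign and call. For a count of factors or genes it meant an equal or a similar count. In all cells, 2 factors were lower over days 0.25 and 1 alone; leaving out single libraries gave 5 to 7 lower, 0 to 1 higher, 2015 to 3969 genes in place of 3661, and -0.080 to 0.39 for Pax6. In gated cells, no filter on low counts gave 4 lower and 2 higher factors and 1243 genes in place of 615. The gene count was 980 with the replicate block, 47 with a gate of 2 UMIs, 217 with thinned cells and 127 with a gate of 10 UMIs, and leaving out single libraries gave 2 to 4 lower factors and 144 to 1382 genes. Insm1 in gated cells turned to 0.032 with DESeq2, 0.030 with the replicate block and 0.11 with a gate of 2 UMIs, and ranged from -0.29 to 0.16 without single libraries. The test by day gave 1 lower factor and 304 genes without the filter, and 0 to 2 genes without single libraries. Its slopes ranged from -0.030 to 0.22 for Fev, -0.064 to 0.20 for Insm1, -0.072 to 0.10 for Neurod1, -0.10 to 0.046 for Nkx2-2, -0.23 to 0.065 for Pax4, -0.00321 to 0.31 for Pax6 and -0.013 to 0.17 for Rfx6. Between cells with and without Neurog3, the gate of 10 UMIs gave 2 lower factors, 1084 genes in place of 4473, -1.04 for Isl1 and -0.040 for Fev. Thinned cells gave 1843 genes and -0.35 for Isl1, and Pax6 ranged from -0.17 to 0.080 without single libraries. The change over days had 4973 genes in the 12 libraries that list fewer genes, in place of 8085. The share of gated cells was -0.61 with thinned cells and -0.96 to -0.52 when a library or day was left out; with 5 days the exact test cannot go below 0.0625. The share with Neurog3 was -1.27 with a gate on Chga or Chgb, -1.95 with a gate of 10 UMIs and -1.34 to -1.10 when a library or day was left out. Among the factor UMIs, Fev turned to 0.15 with the gate of 10 UMIs. The causes were not tested.

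The labels do not say what replicate numbers mark, and differences between replicates 1 and 2 correlated across genes at 0.58 between the conditions of day 6 and at -0.08 to 0.17 between other groups. With the replicate block, Nkx2-2 passed in gated cells (-0.47, adjusted p = 0.033), 3 factors were lower there, and 6 were lower in all cells. Most days have 1 library in a condition, so the spread is pooled over days, and Isl1, Pax6 and Pax4 rest on few UMIs.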

Other observations

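Detection of the factors in the same cells was counted without a test, with the cells of all days pooled within each condition. The days weigh unlike in the conditions, and the part of this in the gaps was not tested. Day 4, for example, gave 221 of the control cells with Neurog3 and 43 of those with KPT-330. Of the 1379 control cells with a UMI of Neurog3, 56.5% also held Neurod1, 45.0% Nkx2-2, 44.9% Insm1, 44.2% Rfx6, 36.0% Fev, 31.0% Pax4, 10.1% Pax6 and 5.08% Isl1. Of the 618 KPT-330 cells with Neurog3, 47.7% held Neurod1, 41.6% Insm1, 33.7% Rfx6, 33.3% Nkx2-2, 19.7% Fev, 8.74% Pax4, 6.63% Pax6 and 6.96% Isl1. Of these 8 partners, Pax4 had the widest gap between the conditions in these pooled cells. Of the cells with Pax6, 35.4% of 393 in control and 13.4% of 307 with KPT-330 held Neurog3, and of those with Isl1, 39.3% of 178 and 20% of 215 did. Median depth in the cells with Neurog3 was 5031 and 5024 UMIs.

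Cells with at least 10 gate UMIs often held several factors. Neurod1 is a gate gene as well as 1 of the 9 factors, so these counts are partly set by the choice of cells. At days 3 to 6, 84.9% of such control cells and 74.7% of such KPT-330 cells held Neurod1. Of 1255 such control cells, 20.2% held 5 factors, 19.5% held 6 and 2.23% held none of the 9. Of 790 such KPT-330 cells, 14.1% held 5, 7.34% held 6 and 6.20% held none. The KPT-330 cells were shallower (median 3441 against 4301 UMIs at days 3 to 6), and the part of depth in these counts was not tested.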
